A study of Rattus norvegicus with 4 samples.

Results

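The Kruppel-like factors described here are 10 zinc-finger transcription factor genes, Klf2, Klf3, Klf4, Klf5, Klf6, Klf7, Klf9, Klf10, Klf11 and Klf15, chosen by name in the gene expression table. Each had 1 row of its own, so they are 10 of 17778 gene rows, and 9 of the 10 reached the mean of 1 FPKM (fragments scaled to transcript length and to the mapped fragments of the library) that was set for testing. RNA came from RSC96, an established rat Schwann cell line, the Schwann cell being the glial cell that ensheathes axons of peripheral nerve. Cells of generation 4 were kept overnight without serum in all groups. The IL-22 group (2 libraries) then received recombinant rat IL-22 at 100 ng/ml for 48 h, and the control group (2 libraries) received 0.1% bovine serum albumin, the solvent, for a time the labels do not state. IL-22, a relative of IL-10, acts mainly through STAT3, and the series title places the experiment in the question of Schwann cell proliferation and nerve regeneration. Nothing in the labels says that the 2 libraries of a group came from separate cultures, so a p-value here reflects library-to-library variation that could be purely technical.

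Kruppel-like factors share a block of C2H2 zinc fingers at the C-terminal end that reads GC-rich and CACCC-type DNA, and they differ in the N-terminal part that recruits cofactors. By textbook grouping, Klf1, Klf2, Klf4, Klf5, Klf6 and Klf7 act largely as activators, Klf3, Klf8 and Klf12 recruit the corepressor CtBP, and Klf9, Klf10, Klf11, Klf13, Klf14 and Klf16 recruit the corepressor Sin3. In neurons the family is known for its part in axon growth, which Klf6 and Klf7 promote and Klf4 and Klf9 restrain. Several members are fast-responding genes that serum, stress, hormones or cytokines induce, which is why they are often read as a record of the signals a cell receives.

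The libraries were checked first. Relative depth, read from the spacing of low values, was 1 for control library 1, 1.28 for control library 2 and 1.09 for each IL-22 library. Absolute depth is unknown. Schwann cell markers were low: 6 of 8 stayed under 1 FPKM in every library, among them Sox10, S100b and Ngfr, and Mbp was listed at 0 throughout. The other 2, Erbb3 and Egr2, were higher with IL-22, and the list summed to 1.85 and 1.89 FPKM in controls and to 6.60 and 7.72 with IL-22. Macrophage markers summed to between 3.80 and 6.25 FPKM, with 2 of 7 listed at 0 in all libraries, and endothelial markers to between 1.18 and 1.90 FPKM with 5 of 6 under 1 FPKM in every library. The fibroblast list summed to between 397 and 407 FPKM, nearly all of it Thy1 and Col1a2, while its members Dcn and Lum were listed at 0. The gene of the IL-22-binding receptor chain, Il22ra1, was also listed at 0 in each library, while the shared-chain gene Il10rb measured from 7.53 to 9.18 FPKM. The part of these marker and receptor levels in the results on Kruppel-like factors was not tested.

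Most of the Kruppel-like factors were more highly expressed after IL-22. Of the 9 tested members, 6 rose (Klf2, Klf3, Klf6, Klf7, Klf9 and Klf11), 0 fell and 3 did not pass the test (Klf4, Klf5 and Klf10) by limma on log2(FPKM + 1) with a Benjamini-Hochberg adjusted p under 0.05. Across all 9485 tested rows 27.6% were called higher and 30.8% lower, or 58.4% in either direction. At an unadjusted limma p under 0.05, 8 members were higher and 1 was lower, against 29.7% and 33.1% of all tested rows. The median difference over the 9 members was 0.47, against -0.022 over all tested rows. The members were chosen with earlier results of these data known, so these counts describe the chosen genes and are no test of the family. Outside the set, Klf12 and Klf13 were called higher and Klf16 lower. The groups did not overlap for any of the 9, with 8 higher and 1 lower, where 80.1% of all tested rows showed no overlap, 38.4% of them on the higher and 41.7% on the lower side. Because the libraries are of bulk RNA, more transcript per cell cannot be told apart from more cells with the transcript. An exact two-sided permutation test of 2 against 2 has a smallest p of 0.333, so the limma p-values depend on variance borrowed from all tested rows.

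**Figure D1:**
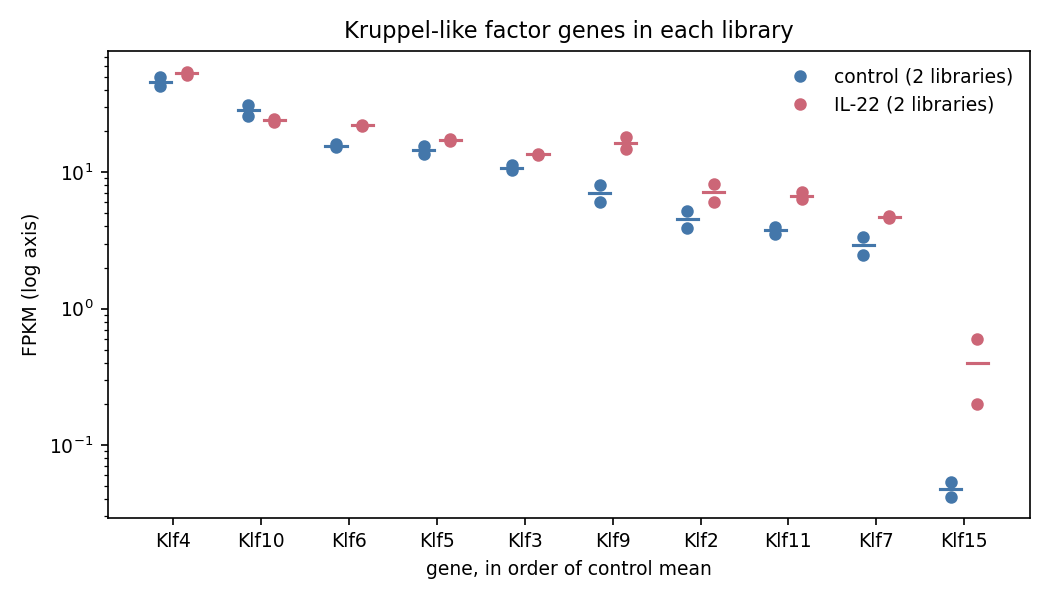
FPKM of the 10 Kruppel-like factor genes in each of the 4 libraries on a log axis, with 1 point per library and a line at the group mean. Klf4 is the highest in both groups and Klf15 lies far below the other 9; Klf9 shows the widest gap between groups among the tested members.

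The levels of the members spanned a wide range, and IL-22 changed their order at few places. FPKM is scaled per length, so levels can be compared between genes, but only roughly, because the annotation behind the values is not stated. In controls Klf4 was highest at 46.0 ± 5.00 FPKM (SD, n = 2), followed by Klf10 (28.4 ± 3.93 FPKM), Klf6 (15.6 ± 0.506 FPKM), Klf5 (14.5 ± 1.36 FPKM) and Klf3 (10.8 ± 0.632 FPKM). Below these came Klf9 (7.04 ± 1.47 FPKM), Klf2 (4.54 ± 0.882 FPKM), Klf11 (3.75 ± 0.292 FPKM) and Klf7 (2.90 ± 0.618 FPKM). Among neighbours in this order, the libraries of Klf6 and Klf5 overlapped, as did those of Klf2 and Klf11. With IL-22 the same 4 genes led, and Klf9 passed Klf3 to the fifth place at 16.3 ± 2.32 FPKM, where its libraries overlapped those of Klf5 (17.1 ± 0.376 FPKM). Klf2 (7.10 ± 1.46 FPKM) and Klf11 (6.74 ± 0.573 FPKM) overlapped again.

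Klf9 showed the largest difference on the log2(FPKM + 1) scale among the tested KLF and SP genes. This repressor, also known as a gene that glucocorticoids and thyroid hormone induce, measured 5.996 and 8.08 FPKM in the controls and 14.7 and 18.0 FPKM with IL-22. Both IL-22 libraries lay well above both controls, although the libraries also differed within each group. The mean was 2.32-fold higher, a difference of 1.12 ± 0.14 (standard error; limma adjusted p = 0.000182), and 5.3% of tested rows had a larger absolute difference. Over 14 alternative analyses its difference ranged from 0.83 to 1.30 and passed in each. The 3 tested genes whose centred log2 values over the 4 libraries lay nearest to those of Klf9 were Ero1lb, an endoplasmic reticulum oxidase gene, Radil, a Rap effector gene, and Plat, which encodes tissue plasminogen activator. Their Euclidean distances were 0.077, 0.080 and 0.090, and with 4 libraries such nearness describes little more than a difference of like size.

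Klf11 and Klf10 are close relatives that TGF-beta is known to induce, and both recruit Sin3. Klf11 measured 3.54 and 3.95 FPKM in controls and 6.34 and 7.15 FPKM with IL-22. It rose 1.80-fold, with a difference of 0.71 ± 0.12 (limma adjusted p = 0.00101), and this passed under all 14 alternatives. Klf10 measured 25.6 and 31.2 FPKM in controls and 23.4 and 24.4 FPKM with IL-22. Its IL-22 values lay just under the lower control. The difference of -0.23 had a 95% interval from -0.46 to -0.01 and did not pass (limma adjusted p = 0.0724). Its size depended on which control was kept: without control library 1 it was -0.37 and passed (limma adjusted p = 0.0204), and without control library 2 it was -0.09 (limma adjusted p = 0.348). Klf10 was therefore the one tested member whose values were lower with IL-22.

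Among the activator-type members, Klf6 gave the clearest difference. Klf6, an injury-response gene that promotes axon growth in neurons, measured 15.3 and 16.0 FPKM in controls and 21.9 and 22.3 FPKM with IL-22. Replicates were close together and the groups lay far apart relative to that spread, with a 1.41-fold rise (0.47 ± 0.08, limma adjusted p = 0.001) that passed under all 14 alternatives. Klf7, its close relative with a like role in axon growth, measured 2.47 and 3.34 FPKM in controls and 4.63 and 4.73 FPKM with IL-22. The rise was 1.61-fold (0.55 ± 0.14, limma adjusted p = 0.00969). The controls of Klf7 differed more than its IL-22 libraries did, and without control library 1 its difference of 0.39 did not pass (limma adjusted p = 0.0563).

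Klf2, best known from quiescent T cells and from endothelium under flow, measured 5.16 and 3.91 FPKM in controls and 6.07 and 8.13 FPKM with IL-22. All values with IL-22 were above both controls, by a wide margin in IL-22 library 2 and a narrow one in IL-22 library 1. The rise was 1.56-fold (0.55 ± 0.16, limma adjusted p = 0.016). That call was lost without control library 2 (0.38, limma adjusted p = 0.16), without the expression minimum (limma adjusted p = 0.0887) and when IL-22 library 2 was left out (0.36, limma adjusted p = 0.1). With a pseudocount of 5 in place of 1, the differences of Klf2, Klf7 and Klf11 were 0.34, 0.29 and 0.42, and each still passed.

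Klf4 and Klf5 were abundant and differed least. Klf4, one of the reprogramming factors and a regulator of the exit from the cell cycle, measured 42.5 and 49.5 FPKM in controls and 51.7 and 54.2 FPKM with IL-22. The higher control lay near the lower IL-22 library, and the difference of 0.20 (95% interval from 0.01 to 0.40) did not pass (limma adjusted p = 0.0672). Klf5, which favours proliferation in epithelium and smooth muscle, measured 13.5 and 15.4 FPKM in controls and 17.4 and 16.8 FPKM with IL-22. Its difference of 0.23 (95% interval from 0.01 to 0.44) did not pass either (limma adjusted p = 0.0635). Both passed without control library 2, Klf4 at 0.31 (limma adjusted p = 0.0218) and Klf5 at 0.32 (limma adjusted p = 0.0381), while without control library 1 they were smaller and did not pass, Klf4 at 0.09 (limma adjusted p = 0.292) and Klf5 at 0.14 (limma adjusted p = 0.233). Both passed after quantile normalization (limma adjusted p = 0.0162 for Klf4 and 0.0423 for Klf5). Both intervals reach past the difference of Klf3.

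Klf3, the CtBP-dependent repressor, measured 10.3 and 11.2 FPKM in controls and 13.7 and 13.3 FPKM with IL-22. The groups were separate but the step was small, 1.25-fold (0.30 ± 0.09, limma adjusted p = 0.0216). The call was lost without control library 1 (0.24, limma adjusted p = 0.0875) and when IL-22 library 1 (0.28, limma adjusted p = 0.102) or its partner library 2 (0.32, limma adjusted p = 0.0614) was dropped.

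Klf15, a glucocorticoid-induced regulator of amino-acid and glucose metabolism, was too low to test. It measured 0.0538 and 0.0419 FPKM in controls and 0.198 and 0.595 FPKM with IL-22. After scaling for relative depth the control values were equal and the IL-22 values were 4.01 and 12.0 times as high, near-whole steps as a handful of reads would give. Both IL-22 values were above both controls, but they differed from each other by more than the lower of them differed from the controls, and no test is given.

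**Figure D2:**
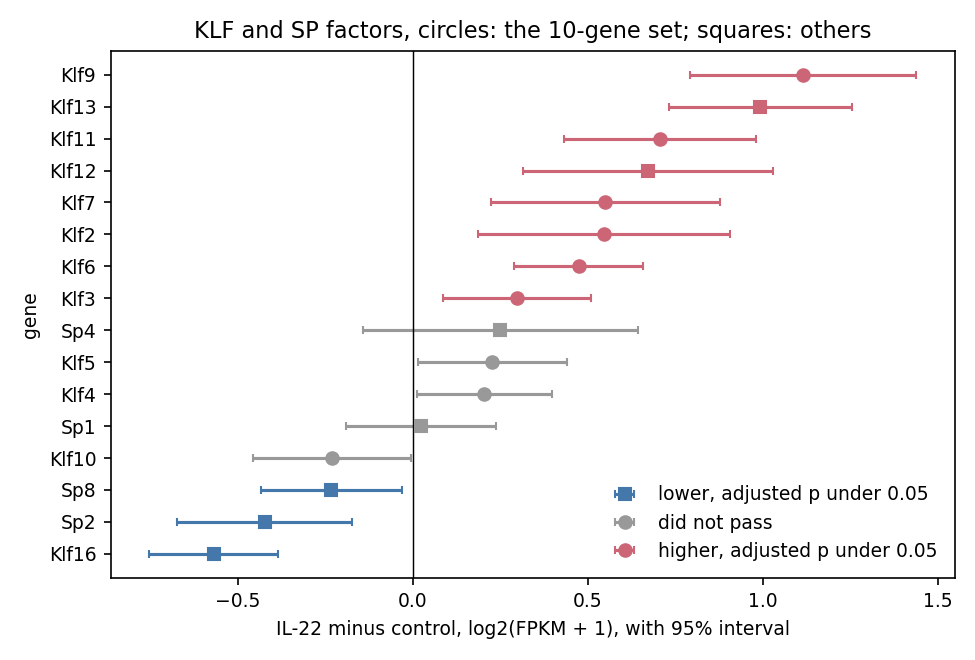
Difference (IL-22 minus control, log2(FPKM + 1)) with its 95% limma interval for the 16 tested KLF and SP factor genes, circles for the 10-gene set and squares for their relatives, coloured by whether the adjusted p was under 0.05. Klf9 and Klf13 lead at 1.12 and 0.99, and Klf16 is lowest at -0.57.

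The relatives outside the set moved in both directions. Of 17 further KLF and SP genes listed, 13 had a row and 7 were tested, of which 2 rose, 3 fell and 2 did not pass, with a median difference of 0.02. Calls over all 9485 tested rows also went both ways, 27.6% higher and 30.8% lower. Klf13, the closest relative of Klf9, measured 5.77 and 4.72 FPKM in controls and 11.3 and 11.5 FPKM with IL-22. It rose 2.17-fold (0.99 ± 0.12, limma adjusted p = 0.000103), nearly as much as Klf9. Klf12, a CtBP-binding repressor like Klf3, measured 1.60 and 2.27 FPKM in controls and 3.42 and 3.88 FPKM with IL-22 and rose 1.89-fold (0.67 ± 0.16, limma adjusted p = 0.00548). Klf16 went the other way: a Sin3-binding factor like Klf9 and Klf13, it fell from 38.8 and 36.1 FPKM to 23.8 and 26.1 FPKM (-0.57 ± 0.08, limma adjusted p = 0.00035). These 3 calls held under each alternative that could be fitted for them (14 for Klf13 and Klf16, 13 for Klf12), with the difference of Klf12 ranging from 0.32 to 0.90.

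Sorted by textbook grouping, which was applied after the values were known, the activator-type KLF genes gave 3 higher and 0 lower of 5 tested. For comparison, 27.6% of all tested rows were called higher and 30.8% lower, or 58.4% in either direction. No group was tested against these shares. The CtBP-binding genes gave 2 higher of 2 tested. The Sin3-binding genes were split, with Klf9, Klf11 and Klf13 higher, Klf16 lower and Klf10 not passing. The SP factors, a family known for binding GC boxes, gave 0 higher and 2 lower of 4 tested by limma. No SP factor was higher at an unadjusted limma p under 0.05, against 29.7% of all tested rows. Sp1, the archetype, measured 15.7 and 17.7 FPKM in controls and 17.7 and 16.2 FPKM with IL-22, and its groups overlapped (0.02, limma adjusted p = 0.85). Sp2 fell from 16.1 and 19.6 FPKM to 13.6 and 12.4 FPKM (-0.42, limma adjusted p = 0.00918), a call lost without control library 2 (-0.29, limma adjusted p = 0.078) and without the expression minimum (limma adjusted p = 0.0554). Sp8 measured 33.8 and 29.1 FPKM in controls and 26.0 and 27.2 FPKM with IL-22 (-0.23, limma adjusted p = 0.0482). Its call was lost under 7 of 14 alternatives, among them those that dropped control library 1 (-0.13) or either IL-22 library (-0.20 without library 1 and -0.27 without library 2). Sp4 measured 2.10 and 3.37 FPKM in controls and 3.43 and 3.33 FPKM with IL-22, and its difference of 0.25 did not pass (limma adjusted p = 0.244). That difference was 0.50 without control library 2, where it passed (limma adjusted p = 0.036), and 0.0033 without control library 1 (limma adjusted p = 0.985).

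The remaining relatives were under the expression minimum. Klf1, the erythroid factor, measured 0.0917 and 0.357 FPKM in controls and 1.02 and 0.762 FPKM with IL-22, and after depth scaling the last 3 values were 5.00, 12.1 and 9.03 times the first. Klf14 was listed at 0 except for 0.0824 FPKM in IL-22 library 1. Sp6 measured 0.202 and 0.105 FPKM in controls and was listed at 0 with IL-22, Sp9 stayed at or under 0.657 FPKM, and Sp5 and Sp7 were listed at 0 in every library.

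The promoters shown are those of the 3 members with the largest passing differences among those matched in the RefSeq table. Of the 10 members 8 matched an entry (assembly GRCr8, which is not the build of the expression values). The sequences run 5′ to 3′ on the coding strand over the 250 bases before the start of transcription, at chr1:230126396-230126645 (plus strand) for Klf9, chr6:47014198-47014447 (plus strand) for Klf11 and chr9:73020057-73020306 (minus strand) for Klf7. Capitals mark the CACCC box that KLF proteins read, the GC box GGGCGG of SP and KLF proteins, and the STAT-type palindrome TTCNNNGAA, on either strand.
Klf9: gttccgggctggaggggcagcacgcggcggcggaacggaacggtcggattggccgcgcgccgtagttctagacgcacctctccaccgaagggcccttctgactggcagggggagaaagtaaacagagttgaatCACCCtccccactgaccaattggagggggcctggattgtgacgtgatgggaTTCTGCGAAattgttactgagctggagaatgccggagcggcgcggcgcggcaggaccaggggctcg
Klf11: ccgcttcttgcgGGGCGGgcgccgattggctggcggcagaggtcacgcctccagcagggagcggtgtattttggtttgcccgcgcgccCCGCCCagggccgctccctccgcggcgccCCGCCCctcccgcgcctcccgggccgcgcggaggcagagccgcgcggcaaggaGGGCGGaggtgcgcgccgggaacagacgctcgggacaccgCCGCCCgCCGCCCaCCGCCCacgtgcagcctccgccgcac
Klf7: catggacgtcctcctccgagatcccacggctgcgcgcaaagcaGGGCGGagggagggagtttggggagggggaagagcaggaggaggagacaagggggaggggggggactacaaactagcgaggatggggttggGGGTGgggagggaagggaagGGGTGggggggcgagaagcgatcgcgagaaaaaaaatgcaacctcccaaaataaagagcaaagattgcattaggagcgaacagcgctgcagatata
The 3 sequences differ in make-up. Klf11 holds 7 GC boxes and no CACCC box in a stretch with a GC content of 79.2%, Klf7 holds 1 GC box and 2 CACCC boxes, read as GGGTG on the coding strand, and Klf9 holds 1 CACCC box and 1 STAT-type palindrome 66 bases before the start. In Klf11 the GC box nearest the start shares a base with an E-box (CACGTG).

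In windows that run on to 50 bases after the start, CACCC was found in 5 of the 8 members and in 54.9% of 33469 RefSeq promoters, and GGGCGG in 4 of the 8 and 33.1%. The STAT-type palindrome was present in Klf9 and Klf4, 2 of 8, against 8.87% of all promoters. An E-box was present in Klf6, Klf11 and Klf15 (3 of 8, against 6.42%) and the CArG box that serum response factor binds in Klf6 (1 of 8, against 1.64%). The cAMP response element TGACGTCA (1.83% of promoters) and the C/EBP-ATF element TGATGNAA (3.98%) were found in 0 of the 8. The GC content of these windows ran from 45% (Klf4) to 77.3% (Klf15), against a median of 51.7% over all promoters. Only Klf4 lay under that median, and the part of base composition in the motif shares was not tested. Both strands were searched, and a match is a run of letters, not a binding site.

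**Figure D3:**
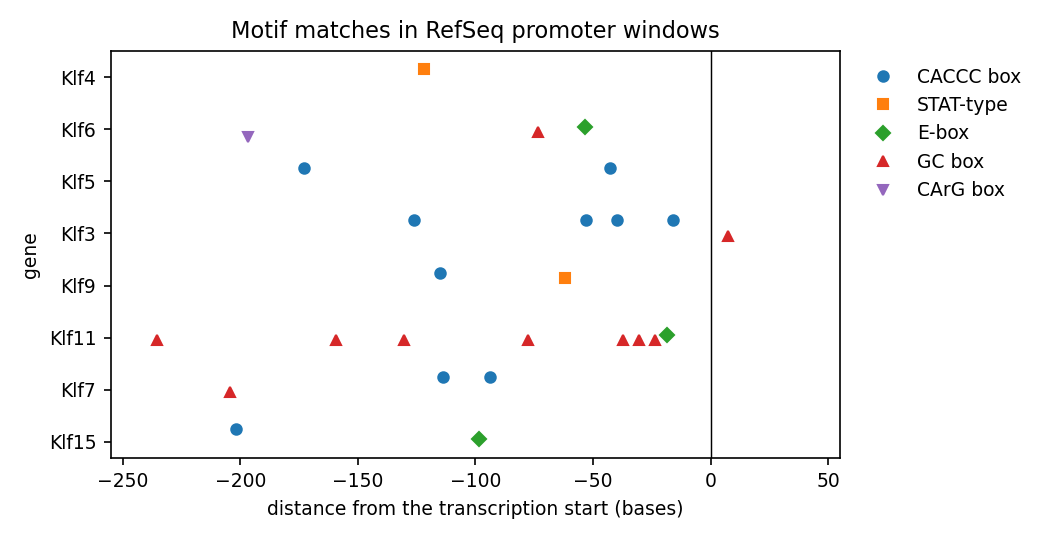
Position of motif matches, on either strand, in the RefSeq promoter windows of 8 members, as distance from the start of transcription in bases, with 1 marker shape per motif. Klf11 carries 7 GC boxes and Klf3 carries 4 CACCC boxes, while the STAT-type palindrome appears only in Klf9 and Klf4 of these 8.

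Genes around the family were read from lists. Of 9 tested cofactor and ubiquitin ligase genes of KLF proteins, 0 were higher and 4 lower by limma, or 1 and 4 at an unadjusted p under 0.05, with a median of -0.13. Over all tested rows 27.6% were called higher and 30.8% lower. The 4 were Crebbp, a histone acetyltransferase (-0.35), the corepressors Ctbp2 (-0.30) and Ctbp1 (-0.21), and Sin3a (-0.26), the scaffold of the Sin3 complex. Crebbp lost its call without the expression minimum (limma adjusted p = 0.0527) and Ctbp1 without the trend (limma adjusted p = 0.0597). Each of the 4 calls was also lost when 1 library was left out: Crebbp without control library 2 (-0.24), Ctbp2 without IL-22 library 1 (-0.28), Sin3a without control library 2 (-0.23) or either IL-22 library (-0.28 without library 1 and -0.24 without library 2), and Ctbp1 without control library 2 (-0.19) or either IL-22 library (-0.18 without library 1 and -0.25 without library 2).

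The kinase route through ERK5 and MEF2 factors, which drives Klf2 and Klf4 in endothelium, gave 3 higher and 2 lower of 6 tested (median 0.10). Again, 27.6% of all tested rows were called higher and 30.8% lower. The MEF2 genes Mef2b (0.74), Mef2a (0.33) and Mef2d (0.33) were higher, while the kinase genes Map3k3 (-0.35) and Mapk7, which encodes ERK5 (-0.28), were lower. Mef2b measured 0.860 and 0.586 FPKM in controls and 1.49 and 2.28 FPKM with IL-22, so its difference rests on low values. Several of these calls did not hold throughout: Mef2b was lost after quantile normalization (0.46, limma adjusted p = 0.0769), and Mef2d and Mapk7 without the expression minimum (limma adjusted p = 0.0848 and 0.0637). When 1 library was left out, Mef2b was lost without control library 2 (0.62), Mef2d without control library 1 (0.18), and Mapk7 without either control library (-0.31 without library 1 and -0.25 without library 2) or IL-22 library 2 (-0.21).

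TGF-beta pathway genes, the setting in which Klf10 and Klf11 were first studied, gave 4 higher and 3 lower of 10 tested (median -0.04). The shares over all tested rows were 27.6% higher and 30.8% lower. The ligand gene Tgfb1 rose from 63.7 and 70.03 FPKM to 97.7 and 95.3 FPKM (0.52), the transducer Smad3 rose (0.57), and the receptor gene Tgfbr2 fell (-0.57). Within the same pathway Smad4 was higher (0.45) and Smad2 lower (-0.36), and Tgfb3 (-0.32) lost its call whichever of the 4 libraries was left out (limma adjusted p from 0.0527 to 0.208).

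Klf9 and Klf15 are known glucocorticoid-receptor targets, and the other listed genes of that response moved in both directions. Of 6 tested 3 were higher and 2 lower (median 0.42), against 27.6% higher and 30.8% lower of all tested rows. Tsc22d3, which encodes the glucocorticoid-induced leucine zipper protein, rose from 5.47 and 5.51 FPKM to 11.3 and 12.5 FPKM (0.99), the clock gene Per1 from 6.25 and 7.15 FPKM to 13.1 and 14.1 FPKM (0.92) and the phosphatase gene Dusp1 by 0.82. The kinase gene Sgk1 fell from 70.1 and 76.7 FPKM to 44.3 and 43.1 FPKM (-0.73), and Fkbp5, the receptor's co-chaperone, was lower by -0.32, a call lost without control library 1 (-0.25) or IL-22 library 2 (-0.27). The receptor gene Nr3c1 measured 25.5 and 26.6 FPKM in controls and 27.1 and 25.4 FPKM with IL-22 (0.01, limma adjusted p = 0.912), and its groups overlapped.

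Genes described elsewhere as KLF targets gave 4 higher and 4 lower of 10 tested, from 20 with a row (median 0.13). Over all tested rows the shares were 27.6% higher and 30.8% lower. Tagln, a smooth muscle gene that Klf4 represses, fell from 23.3 and 26.3 FPKM to 4.54 and 4.28 FPKM (-2.25 ± 0.10, limma adjusted p = 4.69e-07), among the largest differences around the family. Plaur, the urokinase receptor gene, rose 2.20-fold (1.12), and Ccnb1, the mitotic cyclin gene that Klf4 represses, fell by 0.82 on the log2 scale. Slc2a4, the insulin-responsive glucose transporter gene that Klf15 activates, rose from 0.526 and 0.779 FPKM to 1.60 and 1.85 FPKM (0.72), values near the expression minimum. Its difference ranged from 0.25 to 1.29 over the 12 alternatives that could be fitted, and the call was lost after quantile normalization (0.43, limma adjusted p = 0.0622). The neuronal Klf7 target Gap43 was listed at 0 in every library. Nos3, an endothelial target of Klf2, measured 0.227 and 0.152 FPKM in controls and 1.02 and 1.17 FPKM with IL-22, below the expression minimum for the test. Among other listed genes under that minimum, the groups of Thbd and S1pr1 overlapped. Vcam1 measured 0 and 0.0318 FPKM in controls and 0.560 and 0.480 FPKM with IL-22. Of the tested targets, Gpt fell from 10.5 and 9.23 FPKM to 6.23 and 5.79 FPKM (-0.63, limma adjusted p = 0.00107). Bcat2 did not pass and its groups overlapped (0.09, limma adjusted p = 0.477). The listed targets therefore did not share 1 direction, and calls over all tested rows went both ways as well.

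**Figure D4:**
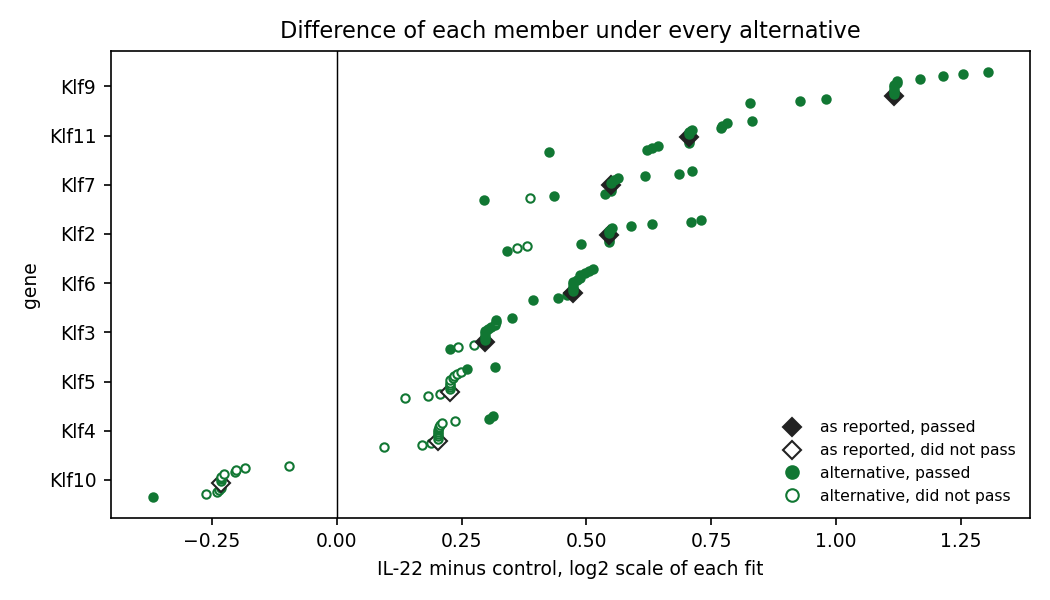
Difference of each tested Kruppel-like factor (IL-22 minus control, on the log2 scale of each fit) as reported (diamonds) and under each alternative (circles), filled where the adjusted p was under 0.05. Klf9, Klf11 and Klf6 are filled throughout, Klf2, Klf3 and Klf7 lose the call under 3, 3 and 1 alternatives, and no member changes sign.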

How the data were processed

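Per the labels' protocols, poly(A) RNA from 4 RSC96 samples went through Illumina HiSeq sequencing. Values deposited by the authors are FPKM, in a gene table with 1 column per library. The submitters' processing notes name TopHat2, Cuffdiff and the build rn5, with no versions or roles, while the annotation, filters, strand and scaling are not stated, so overlapping or antisense genes cannot be told apart. A deposited lncRNA table was not used. Since FPKM cannot enter a count model, limma 3.58.1 (R 4.3.3) was fitted on log2(FPKM + 1) for the 9485 of 17778 rows whose mean reached 1 FPKM. The moderated test used a mean-variance trend and no covariates, was two-sided, and its p-values were Benjamini-Hochberg adjusted over all tested rows (threshold 0.05). A difference on this scale understates the change of low genes, and folds are ratios of group mean FPKM. The scripts were tested on simulated data. The members and gene lists were chosen with earlier results of these data known. Named were every KLF and SP gene with a row, in each further list up to 4 genes past the threshold by absolute difference, and the 3 genes nearest to the member with the largest rise; some genes this rule takes are not reported here, and other genes stand in counts they complete or were named after their values were seen. Alternatives were pseudocounts of 0.1, 0.5 and 5, no minimum or one of 5 FPKM, quantile normalization, size factors, no trend, a robust fit, a replicate block, and leaving out each library. Relative depth was read as the commonest ratio of rows under 0.15 FPKM, with Python 3.11.15. Protein sequences were not used here.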

Additional observations from a re-analysis of the deposited data

How the results depend on the processing

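Directions of all 9 tested Kruppel-like factors were kept under every alternative fitted, and the calls of Klf6, Klf9 and Klf11 passed in each. The number of members called higher was 6, with 5 without the minimum and with a minimum of 5 FPKM (which drops Klf7), 8 after quantile normalization, 7 with the replicate block, and from 4 to 7 when 1 library was left out. The number called lower was 0, but 1 with the replicate block (Klf10) and from 0 to 1 when 1 library was left out. Over all rows the calls stayed within 1.5 times of 2619 higher and 2918 lower.

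Same-numbered libraries did not deviate together (correlation -0.0020 across tested genes). That value shows no shared deviation by number, but it cannot tell whether same-numbered libraries were prepared as pairs. The replicate block added calls for Klf10 (-0.23, limma adjusted p = 0.026) and Klf4 (0.20, limma adjusted p = 0.0258), and raised the cofactor genes called higher from 0 to 1 (Sin3b). Quantile normalization gave 2 cofactor genes higher. Without the minimum, 1 of the other KLF and SP genes was lower in place of 3, and 3 were higher in place of 2. Described KLF targets called higher were then 5 in place of 4. In the same setting ERK5 and MEF2 genes gave 2 higher in place of 3 and 1 lower in place of 2. Lower calls were 3 in place of 4 for cofactor genes and 2 in place of 3 for TGF-beta pathway genes. A minimum of 5 FPKM left 1 other KLF and SP gene higher in place of 2. When 1 library was left out, cofactor genes called higher ranged from 0 to 1 and lower from 1 to 4, ERK5 and MEF2 genes lower from 1 to 2, glucocorticoid-response genes lower from 1 to 2, and described KLF targets higher from 2 to 4. Where 1 library remained in a group, its variance was taken to equal that of the group with 2. The causes of these changes were not tested. Absolute depth is unknown, which limits what can be said of Klf15, Klf1 and other genes under the minimum, and 2 libraries a group limit the precision of every difference.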
